A study of Homo sapiens with 22 samples.

Results

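The long noncoding RNAs that host small nucleolar RNAs (snoRNAs) in their introns were followed through a bromouridine chase in HEK293T cells, a human embryonic kidney line. The genes were GAS5, SNHG1, SNHG5, SNHG6, SNHG8, SNHG12, SNHG15, SNHG16, ZFAS1 and EPB41L4A-AS1, which are 10 of the 15093 genes whose mean count, scaled to the library total as CPM, reached the minimum of 1. They had 244 transcript rows in the count files, of which 210 passed that minimum, and each gene was described by the row with the highest mean count over the 0-10 h libraries. All 10 of these rows passed the minimum. The cells carried a short hairpin RNA, either a control hairpin (shControl) or a hairpin that targets ZNF598 (shZNF598), a ubiquitin ligase of the ribosome quality control pathway. Both kinds of cell were fed 150 µM bromouridine (BrU) for 24 h, moved to medium without it, and harvested after chases of 0, 2, 4, 6 and 10 h with 2 libraries per hairpin, and after 24 h with 1 library per hairpin. RNA that had taken up BrU was pulled down with an anti-BrdU antibody, depleted of ribosomal RNA and sequenced (BRIC-Seq). Each library is a pool of cells, so a change in the share of cells that hold an RNA and a change in the amount per cell cannot be told apart. The labels give no separate cultures for the replicates, and the p-values therefore measure the spread between these libraries, which may be technical.

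A host gene is transcribed into a long precursor, its introns are removed, and the snoRNA is trimmed out of the debranched intron. Box C/D snoRNAs (SNORD names) guide ribose methylation and box H/ACA snoRNAs (SNORA names) guide pseudouridylation, mostly of ribosomal RNA. The spliced exons that are left over carry no long reading frame. Many host transcripts begin with a run of pyrimidines, as the mRNAs of ribosomal proteins do, can be engaged by ribosomes, and are known substrates of nonsense-mediated decay. By the RefSeq annotation the 10 genes held 36 snoRNAs, from 11 in GAS5 and 9 in SNHG1 to 1 each in SNHG6, SNHG8, SNHG15 and EPB41L4A-AS1. GAS5 (growth arrest specific 5) held SNORD74 to SNORD81, SNORD44, SNORD47 and SNORA103, and SNHG1 held the cluster from SNORD22 to SNORD31. SNHG5 (SNORD50A and SNORD50B), SNHG6 (SNORD87), SNHG16 (SNORD1A to SNORD1C) and ZFAS1 (SNORD12, SNORD12B and SNORD12C) held box C/D snoRNAs. SNHG8 (SNORA24), SNHG15 (SNORA9) and EPB41L4A-AS1 (SNORA13) held box H/ACA snoRNAs, and SNHG12, like GAS5, held both kinds (SNORD99, SNORA61, SNORA44 and SNORA16A).

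The transcription starts of the hosts are shown first because a pyrimidine run at the start is known from ribosomal protein mRNAs and from some host genes. By the rule below, which asks for a C as the first base of the run, 5 of the 10 had one. Each window is genomic sequence of GRCh38, written 5′ to 3′ on the strand of the gene. It holds 20 bases before the start and 20 bases from the start on. The start is the one shared by the largest number of annotated rows of the gene, with ties decided by the higher summed count. The capitals mark a C followed by at least 4 further C or T bases, where this run began between 5 bases before the start and base 11.
GAS5: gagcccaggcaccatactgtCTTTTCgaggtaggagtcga
SNHG16: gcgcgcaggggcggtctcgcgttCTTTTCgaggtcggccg
SNHG12: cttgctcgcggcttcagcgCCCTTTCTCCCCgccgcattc
SNHG8: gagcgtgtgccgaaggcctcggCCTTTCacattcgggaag
ZFAS1: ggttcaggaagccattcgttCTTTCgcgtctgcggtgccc
SNHG1: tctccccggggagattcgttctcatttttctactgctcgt
SNHG15: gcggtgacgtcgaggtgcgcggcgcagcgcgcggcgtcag

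The windows lie at chr1:173867970-173868009 (GAS5, minus strand), chr17:76557746-76557785 (SNHG16, plus strand), chr1:28581854-28581893 (SNHG12, minus strand), chr4:118278735-118278774 (SNHG8, plus strand), chr20:49278622-49278661 (ZFAS1, plus strand), chr11:62855866-62855905 (SNHG1, minus strand) and chr7:44986649-44986688 (SNHG15, minus strand). In GAS5 and ZFAS1 the run began at base 1 of the transcript, with 6 and 5 bases, in SNHG8 at base 3 with 6, and in SNHG16 at base 4 with 6. The run of SNHG12 was the longest of the 5, with 12 bases from 1 base before the start. SNHG1 and SNHG15 are shown as examples of the 5 genes without a run by this rule. The SNHG1 window does hold a run of T and C bases shortly after the start, but that run begins with T and the rule does not count it. Near its 5′ end it also holds C and T bases in a row that begin with C, before the range in which the rule looks. By the same rule 21.3% of the 13480 tested genes that matched the annotation and 19.7% of 557 lncRNA genes had a run. Of 40 protein-coding genes that host snoRNAs, 18 had one. The start shown was used by 11 of 31 annotated rows in GAS5, 5 of 13 in SNHG16 and 3 of 17 in SNHG12. The counts were 2 of 8 in SNHG8, 5 of 14 in ZFAS1, 7 of 54 in SNHG1 and 2 of 14 in SNHG15. Other starts of the same genes would give other windows.

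The target of the hairpin was lower in the knockdown. The ZNF598 transcript ENST00000562103.2 had 7.04 and 8.55 CPM in the shControl 0 h libraries and 0.772 and 1.07 CPM in the shZNF598 0 h libraries. Libraries of 0-10 h held 52352359 to 96963584 counts, and those of 24 h held 21220829 (shControl) and 40157613 (shZNF598). The 2 shControl 0 h libraries differed from each other more than other replicates did (r = 0.9774 across genes). Of the markers of this cell line, LIN28B, NEFL and NEFM were detected and PAX2 had 1 to 6 counts per library. PTPRC, ALB and KRT5 had 0 to 2 counts, and COL1A1 had 35 to 103. Levels are CPM after TMM scaling, which sets the bulk of each library to a like level. A slope or change above 0 is thus a rise relative to the bulk of the library and gives no absolute amount.

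At the end of labelling, the 10 hosts spanned a wide range of levels per transcript length. In shControl cells at 0 h, SNHG16 was highest with 17.5 ± 2.0 CPM per kb (SD, n = 2), followed by SNHG6 with 6.71 ± 0.27, GAS5 with 5.70 ± 0.63 and SNHG1 with 5.51 ± 0.051. SNHG15 (2.49 ± 0.33) and SNHG12 (2.42 ± 0.026) came next, and EPB41L4A-AS1 (0.797 ± 0.11), SNHG8 (0.698 ± 0.041), SNHG5 (0.622 ± 0.0073) and ZFAS1 (0.596 ± 0.025 CPM per kb) were lowest. The 2 libraries of GAS5 overlapped those of SNHG1, those of SNHG15 overlapped those of SNHG12, and those of EPB41L4A-AS1 overlapped those of SNHG8. The other neighbours in this order did not overlap. After 10 h the order had changed, with SNHG6 (19.7 ± 2.2) and GAS5 (16.3 ± 2.0) above SNHG16 (9.99 ± 0.71 CPM per kb). Raw counts of the 10 rows ran from 60 in ZFAS1 to 5219 in SNHG16 per library at 0-10 h. The order per kb depends on the row chosen for each gene. In SNHG8 a row of 337 nt had a mean of 180.2 counts, and the row used, of 6166 nt, had 248.55. In ZFAS1 a row of 504 nt had 124.25 counts, and the row used, of 2608 nt, had 127.25. In GAS5 a row of 805 nt had 1606.1 counts per kb, and the row used had 614.8. Other rows would give another order.

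Most of the hosts did not follow a straight line over the chase. Their labelled RNA fell relative to the bulk in the first 2 h and rose relative to it from 2 to 10 h, in both shControl and shZNF598 cells. To describe this, the change from 0 to 2 h and the change from 2 to 10 h were estimated from the group means, averaged over both hairpins. These 2 contrasts were chosen after the levels had been seen. From 0 to 2 h, 8 of the 10 hosts were lower by the quasi-likelihood test of edgeR (Benjamini-Hochberg adjusted p below 0.05, the threshold used throughout), against 9.00% of all 79513 rows. From 2 to 10 h, 8 of 10 were higher and 1 (SNHG16) was lower, against 36.4% of all rows higher and 45.4% lower. Of the 10, 7 were lower in the first step and higher in the second, against 1.90% of all rows, 2.62% of genes with 1 row per gene, and 18.3% of lncRNA genes. The median over the 10 was -0.405 on the log2 scale for the first step and 1.105 for the second, compared with -0.0225 and -0.1315 over all rows.

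The first step rests on the row that stands for each gene and on single libraries. With the row of the highest count per kb, a shorter transcript with no snoRNA in its exons in each of the 10 genes, 4 of 10 hosts were lower from 0 to 2 h and 3 were lower and then higher. Without shControl 0 h replicate 2, either shZNF598 0 h replicate, shControl 2 h replicate 1 or shZNF598 2 h replicate 2, SNHG6 and ZFAS1 were no longer called in that step, and ZFAS1 was also lost without shControl 2 h replicate 2. Without shControl 0 h replicate 1, all 10 were called lower. Scaling by library totals alone moved the median change of all rows from 2 to 10 h from -0.1315 to -0.7738. On that scale 6 hosts were higher, SNHG5 (0.132) was not called, SNHG15 (-0.481) was called lower, and EPB41L4A-AS1 (-0.231) turned negative.

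**Figure D1:**
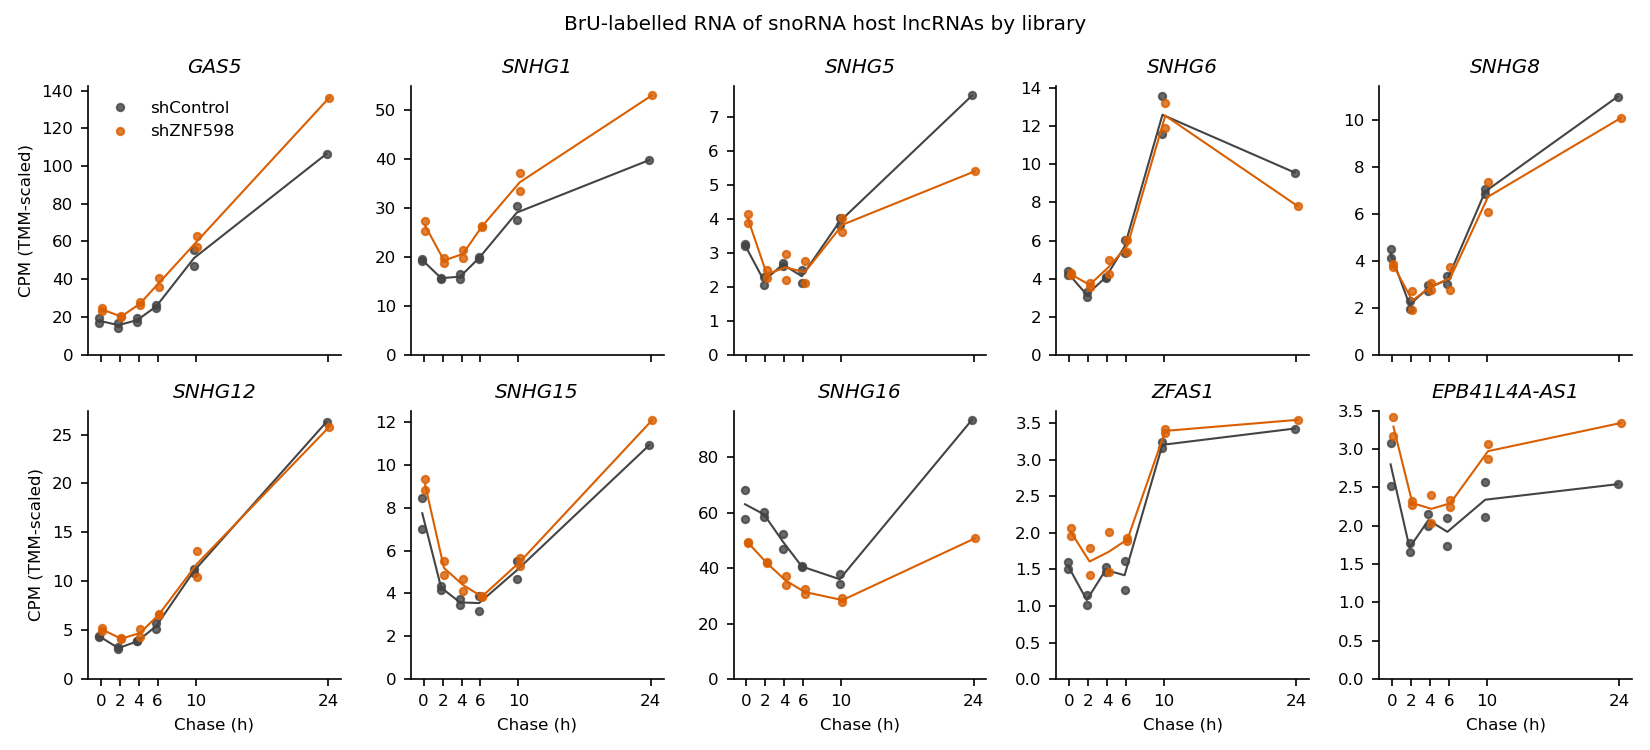
Level of labelled RNA (TMM-scaled CPM, linear axes that start at 0) against chase time in hours for the 10 host genes in shControl (grey) and shZNF598 cells (orange). Points are single libraries, 2 per time at 0-10 h and 1 at 24 h, and lines join their means. Levels were lowest at 2 h in 7 of the 10 genes in both arms, at 6 h in SNHG15 and at 10 h in SNHG16 within 0-10 h, and EPB41L4A-AS1 was lowest at 2 h with shControl but at 4 h with shZNF598.

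GAS5, whose snoRNAs are nearly all of the box C/D kind, had its highest levels at the end of the chase. Its row, ENST00000650796.1 (gene ENSG00000234741.10, chromosome 1, 173863931 to 173867991, minus strand, 3145 nt in 2 exons), is annotated as a retained-intron transcript. In shControl cells it had 16.5 and 19.3 CPM at 0 h, 14.3 and 16.9 at 2 h, 17.3 and 19.3 at 4 h, 24.9 and 26.3 at 6 h, 46.8 and 55.7 at 10 h, and 106.5 in the 24 h library. In shZNF598 cells it had 23.0 and 24.9, 20.3 and 19.9, 26.2 and 28, 40.4 and 35.8, 63.1 and 57.0 CPM at the same 5 times, and 136.4 at 24 h. The libraries of 0, 2 and 4 h lay below those of 6 and 10 h in each arm. The rise from 2 to 10 h was 1.645 on the log2 scale (SE 0.083, edgeR adjusted p = 3.81e-15), and the change from 0 to 2 h, -0.223 (SE 0.083), was not called (edgeR adjusted p = 0.0763).

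SNHG1 had the shallower course of the 2 hosts with a large snoRNA cluster. Its row, ENST00000660960.1 (ENSG00000255717.9, chromosome 11, 62851999 to 62855837, minus strand, 3500 nt in 3 exons), had 19.4 and 19.2 CPM at 0 h, 15.7 and 15.5 at 2 h, 15.4 and 16.4 at 4 h, 19.9 and 19.5 at 6 h, and 27.6 and 30.4 at 10 h in shControl cells. In shZNF598 cells the values were 27.3 and 25.3, 19.6 and 18.8, 19.7 and 21.4, 26.2 and 26.0, and 37.0 and 33.3 CPM. In both arms the 0 h libraries lay above those of 2 and 4 h and below those of 10 h. SNHG1 fell by 0.382 from 0 to 2 h (SE 0.070, edgeR adjusted p = 0.000465) and rose by 0.885 from 2 to 10 h (SE 0.070, adjusted p = 1.89e-11).

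SNHG6, with 639 nt the shortest of the 10 rows, had the largest late rise. The row ENST00000520944.5 (ENSG00000245910.9, chromosome 8, 66921818 to 66925597, minus strand) had 4.17 and 4.41 CPM at 0 h, 3.01 and 3.28 at 2 h, 4.09 and 4.03 at 4 h, 6.02 and 5.34 at 6 h, and 11.6 and 13.6 at 10 h in shControl cells. The rise from 2 to 10 h was 1.888 (SE 0.090, edgeR adjusted p = 1.36e-15), a 3.701-fold change. SNHG6 was the 1 host below both of its 10 h libraries at 24 h in each arm, with 9.57 CPM in the shControl library and 7.81 CPM with shZNF598. The ratio to 0 h went from 2.941 to 2.232 in shControl and from 2.973 to 1.846 in shZNF598 cells, with 1 library per arm at 24 h and no test.

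ZFAS1, which is antisense to the 5′ end of ZNFX1, was highest at 10 h within 0-10 h. The row ENST00000371743.8 (ENSG00000177410.13, chromosome 20, 49278178 to 49290860, plus strand, 2608 nt) had 1.51 and 1.60 CPM at 0 h, 1.15 and 1.01 at 2 h, 1.46 and 1.53 at 4 h, 1.62 and 1.22 at 6 h, and 3.25 and 3.16 at 10 h in shControl cells. The change was -0.427 from 0 to 2 h (SE 0.128, edgeR adjusted p = 0.028) and 1.325 from 2 to 10 h (SE 0.124, adjusted p = 3.87e-10). In shZNF598 cells the 10 h libraries, 3.42 and 3.37 CPM, likewise lay above all libraries of 0 to 6 h.

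SNHG5 fell early and then rose by a like amount. The row ENST00000658077.1 (ENSG00000203875.13, chromosome 6, 85672867 to 85678750, minus strand, 5169 nt) had 3.24 and 3.19 CPM at 0 h, 2.29 and 2.05 at 2 h, 2.60 and 2.7 at 4 h, 2.49 and 2.12 at 6 h, and 4.01 and 3.81 at 10 h in shControl cells. It fell by 0.663 (SE 0.112, edgeR adjusted p = 0.000168) and rose by 0.774 (SE 0.113, adjusted p = 8.86e-07). In shZNF598 cells the libraries of 10 h (4.02 and 3.62 CPM) overlapped those of 0 h (3.87 and 4.12 CPM).

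SNHG16, the host with the highest CPM at 0 h, was the exception among the box C/D hosts. The row ENST00000448136.5 (ENSG00000163597.17, chromosome 17, 76557778 to 76565348, plus strand, 3607 nt) had 57.9 and 68.3 CPM at 0 h, 58.4 and 60.5 at 2 h, 46.8 and 52.4 at 4 h, 41.0 and 40.3 at 6 h, and 34.2 and 37.8 at 10 h in shControl cells. In shZNF598 cells it had 49.5 and 49.0, 42.1 and 41.7, 37.0 and 34.0, 30.5 and 32.3, and 29.1 and 27.8 CPM. From 4 h to 10 h, each pair of libraries lay below the pair before it in both arms. SNHG16 fell by 0.639 from 2 to 10 h (SE 0.072, edgeR adjusted p = 1.09e-08). The single 24 h libraries were high again, at 93.6 CPM (shControl) and 50.8 CPM (shZNF598), or 1.484 and 1.03 times the 0 h level.

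With the rows used, the deepest early falls were those of SNHG8 and SNHG15, both hosts of a box H/ACA snoRNA. EPB41L4A-AS1, also a host of a box H/ACA snoRNA, fell less (0.614) than the box C/D host SNHG5 (0.663). With the row of the highest count per kb, the early change was -0.49 in SNHG8, -0.443 in ZFAS1 and -0.42 in SNHG15. SNHG8 (ENST00000654083.1, ENSG00000269893.10, chromosome 4, 118278708 to 118285316, plus strand, 6166 nt) had 4.12 and 4.48 CPM at 0 h and 2.29 and 1.96 at 2 h in shControl cells, and 3.73 and 3.86 at 0 h and 2.69 and 1.91 at 2 h in shZNF598 cells. It fell by 0.871 in this step (SE 0.118, edgeR adjusted p = 8.48e-06) and rose by 1.627 in the next (SE 0.116, adjusted p = 2.44e-12), to 10 h values of 7.05 and 6.85 CPM with shControl and of 6.09 and 7.36 CPM with shZNF598.

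SNHG15, which is known as a short-lived transcript, was lowest at 6 h and stayed below its 0 h level at 10 h. The row ENST00000577700.5 (ENSG00000232956.10, chromosome 7, 44983023 to 44986637, minus strand, 3116 nt) had 7.02 and 8.47 CPM at 0 h, 4.17 and 4.37 at 2 h, 3.44 and 3.72 at 4 h, 3.90 and 3.20 at 6 h, and 4.67 and 5.49 at 10 h in shControl cells. In shZNF598 cells it had 9.33 and 8.84, 5.49 and 4.88, 4.11 and 4.69, 3.88 and 3.82, and 5.27 and 5.66 CPM. All libraries of 2 to 10 h lay below those of 0 h. SNHG15 fell by 0.835 from 0 to 2 h (SE 0.093, edgeR adjusted p = 4.04e-07), and its change from 2 to 10 h, 0.162 (SE 0.097), was not called (adjusted p = 0.124). This change depended on the method, since DESeq2 called it higher (0.267, adjusted p = 0.0186) and edgeR with library totals called it lower (-0.481, adjusted p = 5.44e-05).

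EPB41L4A-AS1 (ENST00000663232.1, ENSG00000224032.9, chromosome 5, 112160526 to 112164818, plus strand, 3511 nt), antisense to EPB41L4A, had 2.52 and 3.08 CPM at 0 h, 1.65 and 1.77 at 2 h, and 2.57 and 2.11 at 10 h in shControl cells. It fell by 0.614 (SE 0.109, edgeR adjusted p = 0.000316) and rose by 0.410 (SE 0.114, adjusted p = 0.00192). At 10 h the shControl libraries overlapped those of 0 h.

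SNHG12, like GAS5 a host of both kinds of snoRNA, had a late rise close in size to that of GAS5. Its row, ENST00000481368.6 (ENSG00000197989.15, chromosome 1, 28578538 to 28581873, minus strand, 1800 nt in 4 exons), is also annotated as a retained-intron transcript. It had 4.39 and 4.33 CPM at 0 h, 3.08 and 3.26 at 2 h, 3.88 and 3.84 at 4 h, 5.11 and 5.73 at 6 h, and 11.3 and 10.9 at 10 h in shControl cells. The single 24 h libraries held 26.3 CPM (shControl) and 25.8 CPM (shZNF598), 6.027 and 5.1 times the 0 h level. The change was -0.378 from 0 to 2 h (SE 0.092, edgeR adjusted p = 0.00697) and 1.656 from 2 to 10 h (SE 0.090, adjusted p = 1.35e-14).

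**Figure D2:**
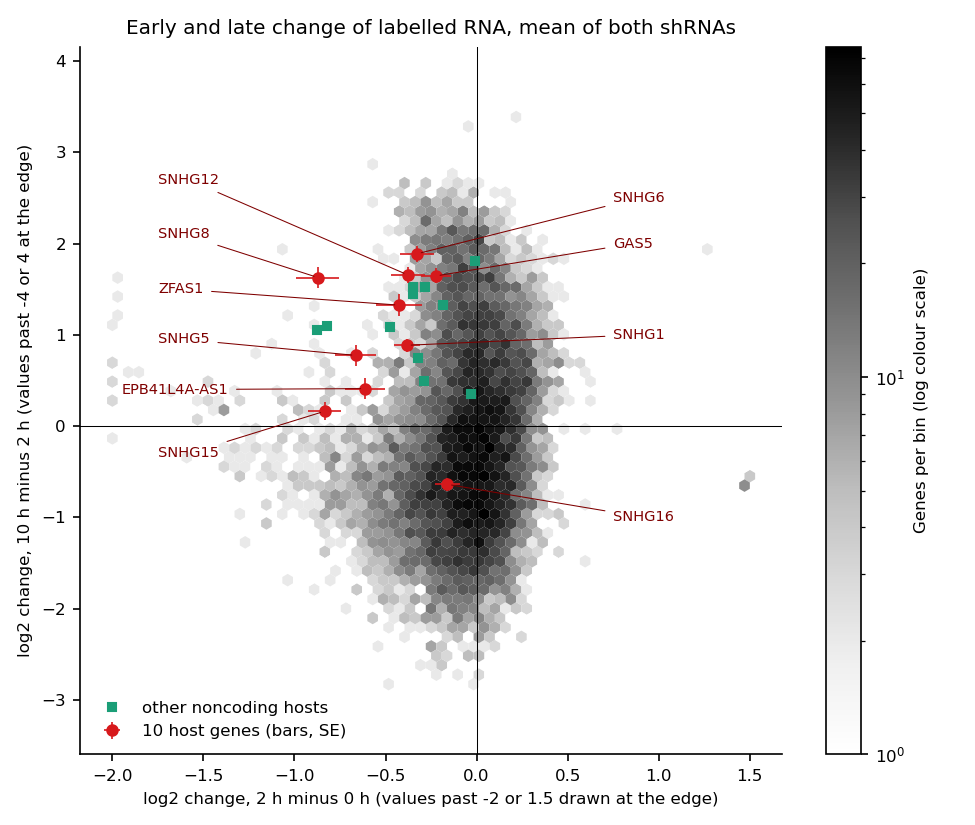
Log2 change of labelled RNA from 0 to 2 h (x axis) and from 2 to 10 h (y axis), averaged over both hairpins. Hexagons count the 15093 genes at 1 row per gene (log colour scale), red points are the 10 host genes with SE bars, and green squares are the 11 other noncoding snoRNA hosts tested. All of the 10 except SNHG16 lie in the upper left, where 2.62% of the genes plotted were called in both steps. GAS5 lies there without being called in the first step and SNHG15 without being called in the second.

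The transcript rows of a gene could differ in whether their exons hold snoRNAs. The rows used for GAS5, SNHG1, SNHG12, SNHG15 and SNHG16 include introns, with 10, 8, 2, 1 and 1 snoRNAs inside their exons, and those of the other 5 genes hold none. A row without a snoRNA is not always a short spliced one. The rows of SNHG8 (6166 nt), SNHG5 (5169 nt) and EPB41L4A-AS1 (3511 nt) also cover most of their genomic span. Reads that align to noncoding RNAs were removed by the authors, in a set that the methods do not list. No snoRNA row of these genes had a mean above 14.4 counts, but not every snoRNA had a row. GAS5 had 0 snoRNA rows for its 11 snoRNAs, SNHG1 had 7 for 9 and SNHG5 had 1 for 2. Reads from the snoRNAs of GAS5 could therefore not be looked up. Isoforms share reads, so their rows are not independent and were compared without a test.

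In all 210 tested rows the change from 0 to 2 h was negative, and 106 were called lower. From 2 to 10 h 169 rows were called higher and 21 lower, the latter 10 rows of SNHG15 and 11 of SNHG16. In SNHG15 the 4 rows with the SNORA9 sequence in their exons changed by 0.075 to 0.299 on the log2 scale from 2 to 10 h, whereas the 10 rows without it changed by -0.835 to -0.342 and were all called lower. After TMM scaling, the SNHG15 rows without SNORA9 were thus called lower relative to the bulk in this step, and those with it were not. With library totals the row used, which holds SNORA9, was called lower too (-0.481). In SNHG16, 9 of 9 rows without a snoRNA were called lower in this step, and among the 4 rows with one the change ran from -0.657 to 0.772. GAS5 rose in all 30 rows (0.946 to 1.702), with a median of 1.41 in rows with and 1.093 in rows without snoRNAs. The medians with and without were 0.747 and 0.57 in SNHG1, 0.519 and 0.463 in SNHG5, 1.473 and 1.398 in SNHG12, and, in the other order, 1.648 and 1.704 in SNHG8. For the early step, 35 of 43 SNHG1 rows with a snoRNA and 0 of 11 rows without one were called lower, and in SNHG12 6 of 7 and 1 of 8 were. GAS5 (2 of 19 and 1 of 11), SNHG5 (11 of 19 and 15 of 40), SNHG8 (2 of 2 and 6 of 6), SNHG15 (4 of 4 and 10 of 10) and SNHG16 (2 of 4 and 0 of 9) had other splits.

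**Figure D3:**
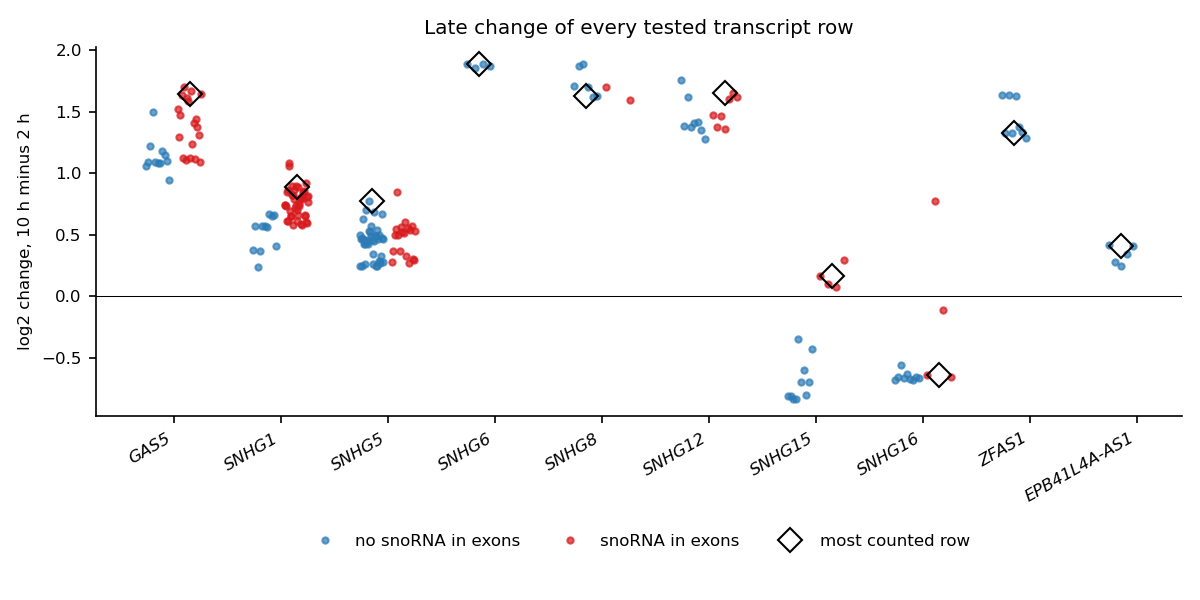
Log2 change of labelled RNA from 2 to 10 h (y axis) in each of the 210 tested transcript rows, by host gene (x axis). Red points are rows with at least 1 snoRNA inside their exons, blue points are rows with none, and diamonds mark the row with the highest mean count. The rows of SNHG15 separate by colour, from 0.075 to 0.299 in red and from -0.835 to -0.342 in blue.

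Reads from a gene on the other strand could add to a row where exons overlap, since the strand setting of the counting is not given in the sources used here although the libraries were stranded. EPB41L4A-AS1 shared 62.7% of its row with exons of EPB41L4A, SNHG16 45.4% with an opposite-strand gene, SNHG8 40.3% with PRSS12, SNHG6 36.2% with MCMDC2 and ZFAS1 9.55% with ZNFX1. In this order, the most counted row of the opposite gene had a mean of 42.1, 5.8, 81.4, 1.4 and 274.3 counts. The host rows had 161.8, 3055.6, 248.6, 386.2 and 127.2. Elsewhere in the files, 21 lncRNA rows of 1 exon lying inside an opposite-strand exon had a median count density of 0.202% of that exon's gene. SNHG5 shared 14.4% of its row with a protein-coding gene of the same strand, from which its reads cannot be told apart.

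A straight line over 0-10 h was also fitted in each arm, to TMM-scaled counts. The spread behind the SE and p-values of these fits includes departures from the line as well as differences between replicates. In shControl cells 6 of the 10 hosts had a slope above 0 at an adjusted p below 0.05, against 33.5% of all rows, and 1 had a slope below 0, against 40.8%. In shZNF598 cells the counts were again 6 and 1, against 32.7% and 38.5%. The 7 called genes were GAS5, SNHG1, SNHG6, SNHG8, SNHG12 and ZFAS1 (higher) and SNHG16 (lower) in both arms. SNHG6 had the steepest slope, 0.175 log2 per hour in shControl (SE 0.026) and 0.169 in shZNF598 cells (SE 0.026), at the 92.1 and 93.3 percentiles of all genes. GAS5 came next with 0.164 (SE 0.020) and 0.15 (SE 0.021), followed by SNHG12 with 0.153 (SE 0.025) and 0.137 (SE 0.026). ZFAS1 (0.118 and 0.084), SNHG8 (0.092 and 0.101) and SNHG1 (0.069 and 0.057) were lower, and SNHG16 had -0.088 and -0.080 log2 per hour (SE 0.011 in both). The slopes of SNHG5 (0.038 and 0.006), SNHG15 (-0.050 and -0.066) and EPB41L4A-AS1 (-0.012 and -0.006) were not called. Of the 5 genes with a run by the rule given above, which also limits where it begins, 4 were called higher and SNHG16 lower. Of the 5 without one by that rule, SNHG1, whose window holds runs that the rule does not count, and SNHG6 were called higher. The rows fitted for some of these genes start elsewhere than the window, and the relation was not tested.

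Slopes above 0 depended on the scaling and on the window. Scaling by totals moved the median slope of all rows from -0.0178 to -0.0876 per hour in shControl cells, and then 3 hosts (GAS5, SNHG6 and SNHG12) had a slope above 0 that was called. On that scale SNHG15 (-0.119 and -0.128) and EPB41L4A-AS1 (-0.080 and -0.068) were called lower in both arms. SNHG5 was called lower in shZNF598 cells, both on that scale (-0.056) and with TMM scaling over 0-6 h (-0.105). Over 0-4 h no host had a called slope above 0, and SNHG15 was called lower with -0.287 in shControl (SE 0.041, edgeR adjusted p = 9.64e-05) and -0.260 in shZNF598 cells. SNHG16 was called lower in both arms over this window, and SNHG1, SNHG5 and EPB41L4A-AS1 in shZNF598 cells. In the 0-10 h fit the slope of SNHG8 in shControl cells was lost without either shControl 2 h or 10 h replicate (0.065 to 0.084), and that of SNHG1 without shControl 10 h replicate 2 (0.052). In shZNF598 cells SNHG1, ZFAS1 and SNHG8 were lost without either 10 h replicate (0.041 to 0.090), which left 4 called hosts without replicate 1 and 5, SNHG15 among them, without replicate 2. SNHG15 was called lower in shZNF598 cells without the 10 h replicate 2 (-0.094).

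An apparent half-life, the negative reciprocal of the slope of log2 change against 0 h in the chase window with the best linear fit, could be read for few hosts. Under the rule of an R² above 0.9 and a value between 0 and 24 h, SNHG16 was the 1 host with a value in both arms, 9.87 h in each of them over 0-6 h. SNHG15 passed in shControl cells, with 3.69 h over 0-4 h, and missed in shZNF598 cells, where the same window gave 4.02 h at an R² of 0.892. For the other 8 the rule gave no value in either arm. Of all rows, 18.9% had a value in both arms. These half-lives are relative to the bulk of labelled RNA, have no test, and over a fixed window of 0-10 h SNHG16 too missed the rule in shZNF598 cells.

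The study asked whether loss of ZNF598 changes RNA decay. None of the 10 hosts differed in slope between the arms (edgeR quasi-likelihood test, 0 of 10 at an adjusted p below 0.05 and 0 of 10 at an unadjusted p below 0.05, and 0 of 10 by DESeq2), against 0.116% of all rows. The differences, shZNF598 minus shControl, ran from -0.034 log2 per hour in ZFAS1 (95% interval -0.112 to 0.045) to 0.009 in SNHG8 (-0.094 to 0.113). The interval was narrowest in SNHG16, at 0.008 (-0.022 to 0.038), and for GAS5 it was -0.072 to 0.045. These intervals use a normal quantile and rest on the straight-line fit with 10 libraries per arm. Differences inside a gene's own interval remain compatible with the data, so equal slopes were not shown. None of the 210 rows of these genes was called either.

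The level of the hosts did differ between the arms over the chase. Averaged over the 5 times of 0-10 h, 6 hosts were higher in shZNF598 cells, against 12.3% of all rows, and SNHG16 was lower, against 10.1% of all rows. Of all rows, 2.05% had both shZNF598 libraries above both shControl libraries at 5 of 5 times, 7.31% at 4 or more and 17.3% at 3 or more, and 2.44% had them below at 5 of 5 times. GAS5 was higher by 0.431 (SE 0.052, edgeR adjusted p = 1.5e-06), or 1.348-fold, and its shZNF598 libraries lay above the shControl libraries at each of the 5 times. SNHG1 was higher by 0.361 (SE 0.044, adjusted p = 2.01e-06), again without overlap at 5 of 5 times. ZFAS1 (0.329, SE 0.079), EPB41L4A-AS1 (0.270, SE 0.071) and SNHG12 (0.252, SE 0.057) were higher without overlap at 4 of 5 times each, and SNHG15 (0.203, SE 0.061) at 3 of 5. SNHG15 was not called without shControl 6 h replicate 2 (0.177, adjusted p = 0.0518).

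SNHG16 was lower by 0.410 (SE 0.045, edgeR adjusted p = 3.69e-07), or 0.7526-fold, and its 2 shZNF598 libraries lay below both shControl libraries at all 5 times. SNHG5 (0.085), SNHG6 (0.076) and SNHG8 (-0.009) were not called. At 0 h alone, SNHG1 was the 1 host called, against 0.0729% of all rows called higher. Its 0 h values of 19.4 and 19.2 CPM with shControl and of 27.3 and 25.3 CPM with shZNF598 gave a difference of 0.448 (SE 0.099, edgeR adjusted p = 0.0381). This call was lost in 11 of the 20 fits that left out 1 library (adjusted p up to 0.479) and when the 0 h libraries were fitted by themselves (adjusted p = 0.751). Without shControl 0 h replicate 2, GAS5 was called higher as well (0.532, adjusted p = 0.0357), and without replicate 1 SNHG16 was called lower (-0.471, adjusted p = 0.0386). In the full fit GAS5 differed by 0.415 (adjusted p = 0.141) and SNHG16 by -0.356 (adjusted p = 0.14) at 0 h.

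**Figure D4:**
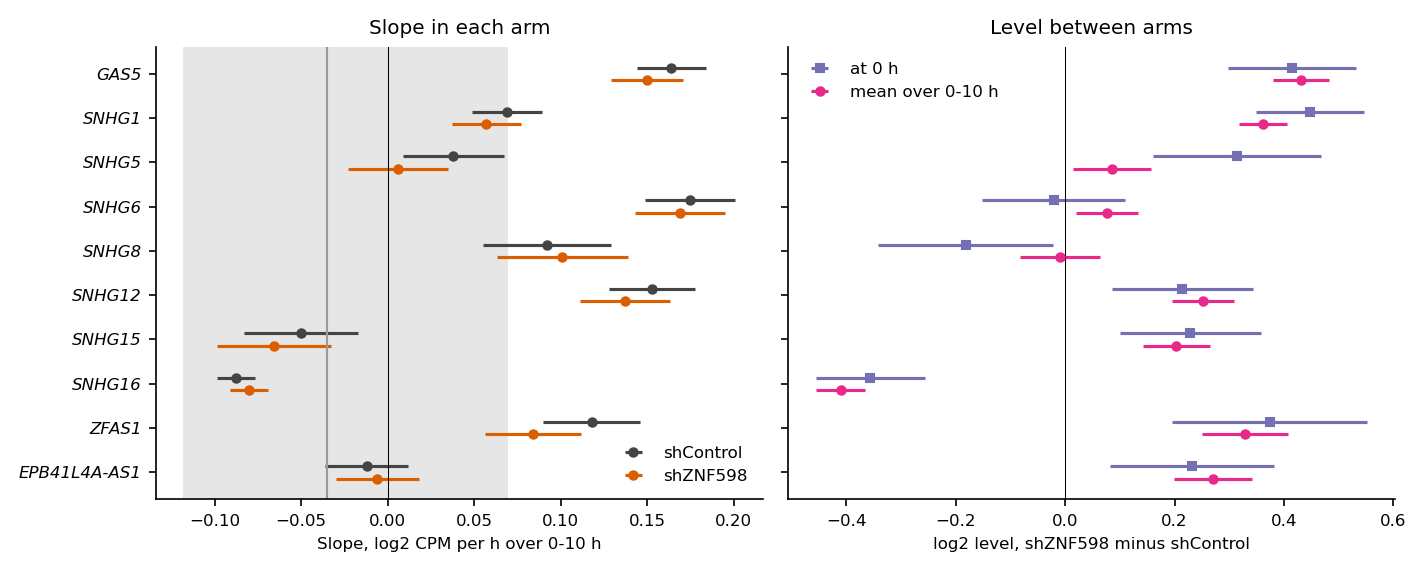
Left, slope of log2 CPM per hour over 0-10 h for each host gene in shControl (grey) and shZNF598 cells (orange), with SE bars, over the middle 50% (band) and median (-0.035, grey line) of 15093 genes in shControl cells. Right, log2 level in shZNF598 minus shControl cells at 0 h (squares) and averaged over 0-10 h (circles), with SE bars. No slope differed between the arms by more than 0.034, and SNHG16 lies at -0.410 while 6 genes lie at 0.203 to 0.431 in the averaged level.

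Other genes of the pathway were set beside the 10, at 1 row per gene. Of all genes, 31.1% had a called slope above 0 and 45.8% below 0 in shControl cells. From 0 to 2 h 14.3% were lower, and from 2 to 10 h 34.4% were higher and 49.6% lower. Lower and then higher were 2.62%, and the averaged level was higher with shZNF598 in 15.6% and lower in 10.5%. Of 17 further noncoding snoRNA hosts, 11 passed the minimum, and 7 of these had a called slope above 0 and 0 a slope below 0 in shControl cells, with a median of 0.076 log2 per hour. Of the 11, 6 were lower from 0 to 2 h, 10 were higher from 2 to 10 h and 6 were both. SNHG29 (0.200, SE 0.016), SNHG4 (0.151, SE 0.026) and SNHG32 (0.140, SE 0.017) had the steepest slopes. SNHG29 did not fall early, with -0.007 from 0 to 2 h and 1.805 from 2 to 10 h, while SNHG4 fell by 0.351 and rose by 1.522. In the averaged level, 4 of the 11 were higher and 1 was lower with shZNF598.

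Protein-coding genes that host snoRNAs in their introns, mostly ribosomal proteins and translation factors, mostly rose late. The share of them that fell early was near that of all genes. Of 40, 31 had a slope above 0 and 6 a slope below 0 in shControl cells (median 0.176), against 31.1% and 45.8% of all genes. From 2 to 10 h 31 were higher and 7 lower, against 34.4% and 49.6% of all genes. From 0 to 2 h 4 were lower, against 14.3% of all genes and 15.6% of protein-coding genes. Among the steepest were RPSA (0.256, SE 0.019) and RPL3 (0.243, SE 0.018), which encode proteins of the small and the large ribosomal subunit. PPAN (-0.085, SE 0.029), NAP1L4 (-0.067, SE 0.015) and TNPO2 (-0.046, SE 0.013) had the lowest slopes. Of these genes, 22 had a higher and 2 a lower averaged level in shZNF598 cells, compared with 15.6% and 10.5% of all genes.

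The proteins that form or assemble snoRNPs did not share a direction. Of 17, 8 had a slope above 0 and 7 below 0 in shControl cells, against 31.1% and 45.8% of all genes, with a median of -0.001. NHP2 (0.180, SE 0.016), PIH1D1 (0.153, SE 0.015) and FBL (0.144, SE 0.015), the box C/D methyltransferase, had the highest slopes. NUFIP1 (-0.179, SE 0.033), SHQ1 (-0.157, SE 0.019) and GAR1 (-0.148, SE 0.027), the first 2 of which act in snoRNP assembly, had the lowest. None of the 17 was lower from 0 to 2 h and higher from 2 to 10 h. In the averaged level, 0 of the 17 were higher and 1 was lower with shZNF598.

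The annotation gave a further list, every lncRNA gene other than the 10 whose span holds an annotated snoRNA gene on the same strand. It had 81 genes, of which 24 rows were tested, for 11 genes that are also among the other noncoding hosts above and 12 further ones (CCT6P3 had 2 rows under 2 gene IDs). Of the 24, 12 had a slope above 0 and 1 (UBA6-DT, -0.182, SE 0.035) a slope below 0 in shControl cells, 11 were lower from 0 to 2 h and 1 higher, and 10 were lower and then higher. For 557 lncRNA genes in all, 25.9% had a slope above 0 and 30.3% a slope below 0 in shControl cells. Of the same genes, 32.1% were lower and 1.97% higher from 0 to 2 h, 45.6% were higher from 2 to 10 h, and 18.3% were lower and then higher.

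Across the 20 libraries of 0-10 h most hosts varied together, and SNHG16 and SNHG15 did so least. The Pearson r of log2 CPM with the mean of the other 9 was -0.543 for SNHG16, 0.434 for SNHG15 and 0.666 to 0.911 for the rest. Between 2 hosts other than SNHG16, r ran from -0.019 (GAS5 and SNHG15) to 0.974 with a median of 0.754, whereas that of SNHG16 with each of the 9 ran from -0.841 to 0.321. These libraries share chase times and hairpins, so r is a description. The genes whose log2 CPM was most like the mean of the 10 were GABPB1-AS1 (r = 0.9381), ARFRP1 (0.9336), RPL17P5 (0.9324), FAM88C (0.9263) and FAM88E (0.9224). RPL17P5 is a processed pseudogene that may share reads with RPL17, so its values are uncertain. GABPB1-AS1, an antisense lncRNA, changed by -0.749 from 0 to 2 h and by 1.253 from 2 to 10 h.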

How the data were processed

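HEK293T libraries of BrU-labelled RNA were grouped by hairpin and chase time per the labels. Per the study's methods, the authors trimmed reads with fastp, removed noncoding RNA reads, aligned the rest with STAR to hg38 with GENCODE 32 and counted them with featureCounts. The submitters' processing notes name STAR 2.7.0a, CASAVA 1.8 and hg38. The deposited values are raw counts per transcript, in which a read is counted in every isoform that it overlaps. Each file also holds a further deposited column, which matches the transcript length divided by 3 and was not used. The 3 BrU spike-ins of the study were not used here, so that absolute decay was not measured.

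Rows were named by transcript ID from GENCODE 44, which matched 98.353% of 227264 rows, and the unmatched rows held 2.221% of counts. Each unmatched row that was tested counts as a gene of its own among the 15093 genes. The 13480 genes searched for pyrimidine runs leave such rows out. Lengths, exons and coordinates (GRCh38) came from the same annotation, snoRNA positions came from RefSeq and were used without strand. Each gene was represented by its row with the highest mean count over the 20 libraries of 0-10 h. Rows with a mean of at least 1 CPM (79513) were tested with edgeR 4.0.16 in R 4.3.3 (quasi-likelihood test, TMM scaling, Benjamini-Hochberg adjustment over all rows, two-sided, threshold 0.05), in a model with an intercept and a slope per hairpin or a mean per group. The 24 h libraries (1 per hairpin) entered the apparent half-lives, which come from DESeq2 1.42.0 estimates, and the slopes over 0-24 h given as an alternative, and no other test. Correlations used log2 of CPM plus 0.5. The tests were also run on simulated data with independent rows, 1 fixed spread and at most 200 changed rows. In the real data far more rows were called and isoforms share reads, which this check does not cover. The alternatives were library totals, DESeq2, no filter, 1 row per gene, other windows, other rows, a replicate block and leaving out each library. The genes named are the 10 hosts, ZNF598, up to 3 genes with the highest and lowest called slopes of each list and the 5 genes most like the hosts. A gene that this rule names is not reported here. The hosts and the lists were chosen with earlier results of these data known.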

Additional observations from a re-analysis of the deposited data

How the results depend on the processing

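Counts below are of the 10 hosts called at an adjusted p below 0.05 (edgeR). In shControl cells 4 slopes were called over 0-6 h and 2 over 0-4 h, instead of 7. At 0 h, 0 hosts differed with library totals and 0 in the 0 h libraries alone, instead of 1. From 0 to 2 h, 4 were lower with the row of the highest count per kb, and 3 of 5 with canonical rows. Lower and then higher were 3 and 2 of 5 with these rows. With a fixed 0-10 h window, 0 half-lives passed in both arms. Leaving out 1 library gave 5 to 7 slopes in shControl, 4 to 7 in shZNF598 cells, 0 slope differences, 0 to 2 hosts at 0 h, 6 to 7 in the averaged level, 6 to 10 from 0 to 2 h, 9 from 2 to 10 h and 5 to 8 in both steps.

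Library totals moved the share of higher among called rows from 45.1% to 22% for slopes in shControl, from 46.0% to 22% in shZNF598 cells, from 44.5% to 21.7% from 2 to 10 h, and from 17.9% to 6.5% at 0 h (27.1% with DESeq2). DESeq2 called 519 slope differences among all rows and edgeR 92.

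Directions that turned were these. With library totals, the slope was -0.0004 (SNHG1) and -0.032 (SNHG5) in shControl and -0.004 and -0.056 in shZNF598 cells, the slope difference of SNHG6 was 0.0006, and the change from 2 to 10 h was -0.481 (SNHG15) and -0.231 (EPB41L4A-AS1). Over 0-4 h the shControl slope was -0.076 (SNHG1), -0.077 (SNHG5), -0.026 (SNHG6), -0.161 (SNHG8), -0.050 (SNHG12) and -0.021 (ZFAS1), and the shZNF598 slope -0.086 (SNHG1), -0.159 (SNHG5), -0.093 (SNHG8), -0.021 (SNHG12) and -0.051 (ZFAS1). Over 0-6 h it was -0.059 (SNHG5) and -0.055 (SNHG8) in shControl, and -0.105 (SNHG5), -0.018 (SNHG8) and -0.005 (ZFAS1) in shZNF598 cells. Over 0-24 h it was 0.029 (SNHG15), 0.015 (SNHG16) and 0.002 (EPB41L4A-AS1) in shControl, and 0.024 (SNHG15) and 0.009 (EPB41L4A-AS1) in shZNF598 cells. The shZNF598 slope of EPB41L4A-AS1 was 0.004 with DESeq2, 0.001 with 1 row per gene and 0.012 with the row of the highest count per kb, where SNHG5 had -5e-07 in shControl cells and SNHG15 changed by -0.812 from 2 to 10 h. SNHG6 differed by 0.002 at 0 h without the filter.

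None of the slope differences was called under any setting. Those that turned were, over 0-6 h, 0.033 (GAS5), 0.005 (SNHG6), 0.010 (SNHG12), -0.0005 (SNHG16) and -0.007 (EPB41L4A-AS1). Over 0-4 h they were 0.048 (GAS5), 0.060 (SNHG6), 0.029 (SNHG12), 0.027 (SNHG15), -0.022 (SNHG16) and -0.023 (EPB41L4A-AS1), and over 0-24 h -0.0008 (SNHG8) and -0.018 (SNHG16). With the row of the highest count per kb they were 0.005 (SNHG5), 0.002 (SNHG6) and -0.002 (SNHG8), and with the canonical row 0.003 (SNHG5).

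Leaving out 1 library turned directions only in values that were not called. The slope of EPB41L4A-AS1 ran from -0.036 to 0.015 in shControl and from -0.024 to 0.014 in shZNF598 cells, and that of SNHG5 in shZNF598 cells from -0.023 to 0.031. Slope differences ran from -0.037 to 0.012 (GAS5), -0.029 to 0.008 (SNHG1), -0.032 to 0.021 (SNHG6), -0.027 to 0.037 (SNHG8), -0.043 to 0.005 (SNHG12), -0.050 to 0.019 (SNHG15), -0.0007 to 0.018 (SNHG16) and -0.021 to 0.031 (EPB41L4A-AS1). SNHG6 at 0 h ran from -0.061 to 0.021, and the averaged level of SNHG8 from -0.062 to 0.037. The causes were not tested.

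Same-numbered replicates of the 2 hairpins did not deviate together at every time (correlations of 0.008, 0.124, 0.367, 0.309 and -0.238 from 0 to 10 h). With a replicate block, 7 slopes were called in each arm, as without it, and 70 of 70 host values kept their direction and their side of the threshold.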
